A study of Mus musculus with 72 samples.

Results

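The genes described here carry growth hormone, prolactin receptor and IGF1 signalling in the mouse liver. They were the rows of the count table whose Ensembl identifiers carry the symbols Ghr, Prlr, Igf1, Igfals, Socs2, Socs3, Cish, Stat5a, Stat5b and Bcl6 in GENCODE M21. These were 10 of the 51912 genes in the table, and all 10 were among the 12712 genes with enough counts to test. The study took livers of wild-type male C57BL/6J mice, 43 to 49 days old at the start, kept in 12 h of light and 12 h of dark with free water. The 4 groups differed in feeding: arrhythmic feeding in mice labelled as not fully adapted (here incompletely adapted arrhythmic), arrhythmic feeding, night-restricted feeding and ad libitum feeding. Each paradigm was sampled at 6 zeitgeber times (ZT, hours after lights on), every 4 h starting at ZT02, with 3 libraries per time, so 18 libraries per paradigm and 72 in all. The sources used here leave out how meals were scheduled and what counted as adapted. They do not state that replicates came from different animals, so the p-values measure only the spread between these samples, which may be technical.

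Growth hormone binds its receptor (Ghr) on hepatocytes, and the receptor-bound kinase Jak2 activates STAT5, of which mice have the related genes Stat5a and Stat5b. STAT5 raises transcription of Igf1, the circulating growth factor, of Igfals, the acid-labile subunit that holds IGF1 in serum complexes, and of Cish and Socs2, which damp the receptor's signal in turn. In mouse liver STAT5 represses Bcl6, itself a repressor that binds many of the same DNA sites, and in male rodents growth hormone reaches the liver in pulses. The prolactin receptor (Prlr) also signals through STAT5, while Socs3 is a feedback inhibitor best known downstream of interleukin 6.

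The letters TTCNNNGAA, the core that STAT5 dimers bind, were searched in the 250 bases before the RefSeq starts (GRCm38.p6). The motif reads the same on both strands, so a match on either strand is a single match. It stood in 6 of 17 windows of the 9 members that had an entry, and in 4 of those 9 genes (Prlr, Bcl6, Socs3 and Igfals), against 8.13 percent of 27025 genes and 7.02 percent of 32851 windows overall. Cish had no match in its window, and Socs2 had no entry. Of these, 3 windows without exon sequence are printed because Bcl6 and Prlr carry the main results below. Capitals mark the motif, sequences run 5′ to 3′ along the gene, and positions count back from the start.
Bcl6, chr16:23988853-23989102, minus strand, motif at -118: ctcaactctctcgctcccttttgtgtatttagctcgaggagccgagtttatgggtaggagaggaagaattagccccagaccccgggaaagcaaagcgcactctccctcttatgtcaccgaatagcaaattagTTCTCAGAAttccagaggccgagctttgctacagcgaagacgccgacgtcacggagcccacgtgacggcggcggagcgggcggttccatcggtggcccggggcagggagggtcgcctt
Bcl6, chr16:23981284-23981533, minus strand, motifs at -168, -122 and -88: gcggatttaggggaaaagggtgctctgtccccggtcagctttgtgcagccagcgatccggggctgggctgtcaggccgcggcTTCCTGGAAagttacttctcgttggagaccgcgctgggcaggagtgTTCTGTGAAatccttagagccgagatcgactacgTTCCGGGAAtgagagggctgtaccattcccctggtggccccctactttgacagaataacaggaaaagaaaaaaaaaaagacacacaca
Prlr, chr15:10223656-10223905, plus strand, motif at -110: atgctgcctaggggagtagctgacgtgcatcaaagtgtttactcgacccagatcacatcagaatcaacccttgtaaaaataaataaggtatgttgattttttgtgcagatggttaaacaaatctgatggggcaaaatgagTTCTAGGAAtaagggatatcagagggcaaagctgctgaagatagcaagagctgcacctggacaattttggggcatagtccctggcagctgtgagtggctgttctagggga
The downstream Bcl6 window held 3 motifs, and 0.317 percent of all windows held at least 2. A match in these letters is a description of the sequence, not of binding.

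Total counts per library ran from 4342026 to 12286021. All 6 hepatocyte markers checked (Alb, Apoa1, Ttr, Cps1, Hnf4a and Serpina1c) were detected in every library. Libraries differed in composition: the slope of a library's log2 deviations per 10 percentage points of GC in the transcripts' last 300 bases averaged -0.085 ± 0.232 in incompletely adapted arrhythmic, -0.0216 ± 0.166 in arrhythmic, 0.098 ± 0.256 in night-restricted and 0.00855 ± 0.161 in ad libitum libraries (SD, n = 18 each). Of the 5 libraries with the most extreme slope, 4 came from replicate 1 of the night-restricted group (at ZT22, ZT18, ZT06 and ZT02). Over 72 libraries the members' deviations from their group means had r with this slope from -0.787 for Ghr to 0.837 for Igfals, with -0.765 for Socs3, -0.196 for Prlr and 0.0694 for Igf1. This order followed the GC content of the members' 3′ ends only in part. Ghr (39.9 percent GC) had a negative r and Igfals (57.5 percent) a positive one. Socs3 (58.3 percent) also had a negative r, but it was sparse, with 413 counts over 72 libraries. Prlr (39.9 percent) had a GC content like that of Ghr and an r nearer to that of Igf1 (41.7 percent). In bulk tissue, fewer cells of a type and less RNA per cell cannot be told apart.

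The clearest difference in level was in the prolactin receptor, which was higher under arrhythmic and night-restricted feeding than under ad libitum feeding. Prlr (chr15:10177238-10349180, plus strand, GRCm38) had a lowest, median and highest level of 31.6, 48.5 and 134 CPM (counts scaled to the library's total) in arrhythmic libraries, 30.8, 54.4 and 85.8 CPM in night-restricted libraries and 20.8, 31.9 and 45.8 CPM in ad libitum libraries. At ZT02 it measured 53.8, 63.4 and 43.3 CPM in arrhythmic livers, 56.8, 66.3 and 55.6 CPM in night-restricted livers and 26.1, 26.0 and 34.5 CPM in ad libitum livers. At that time the ad libitum libraries lay below all the others, and over the day the ranges overlapped, with the arrhythmic ZT22 replicate 1 the highest library. In incompletely adapted arrhythmic libraries, which were not tested against ad libitum, Prlr had a lowest, median and highest level of 32.0, 39.3 and 68.6 CPM.

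Over the day Prlr averaged 54.2 ± 24.1 CPM under arrhythmic and 32.3 ± 6.83 CPM under ad libitum feeding (SD, n = 18 each), a log2 difference of 0.74 ± 0.12 (SE) with an edgeR quasi-likelihood adjusted p of 0.000132. Under night-restricted feeding it averaged 52.2 ± 14.5 CPM, and the log2 difference from ad libitum feeding was also 0.74 ± 0.12 (adjusted p = 5.44e-05, edgeR). The mean was higher than under ad libitum feeding at 6 of 6 times in both paradigms. These comparisons share the ad libitum libraries. Of the 10 members Prlr was the only one past the test in either, where 2.1 percent of all genes tested passed for arrhythmic (0.661 percent higher, 1.44 percent lower) and 1.62 percent for night-restricted feeding (0.724 percent higher, 0.897 percent lower). Leaving out any 1 library kept both calls, with log2 differences of 0.62 to 0.79 and 0.69 to 0.77. The fit took the 18 libraries of a paradigm as independent, but those of the same replicate number shared deviations. The SEs and p-values of these mean differences may therefore be too small. Leaving out all 6 libraries of a replicate number kept each call in 6 of 6 cases, with log2 differences of 0.56 to 0.83 and 0.66 to 0.82.

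Among markers of other cell types, Cfd was lower in both of these comparisons, by log2 differences of -2.53 under arrhythmic and -2.62 under night-restricted feeding, and was the only tested one of 3 adipocyte markers. Their summed level ran from 0 to 4.85 CPM in arrhythmic, 0.133 to 6.13 CPM in night-restricted and 3.71 to 20.2 CPM in ad libitum libraries, and the defining markers Adipoq and Plin1 were at 0 in 51 and 60 of the 72 libraries. The neutrophil marker S100a8, 1 of 2 tested of 3, was lower under arrhythmic than ad libitum feeding. The neutrophil sum ran from 1.07 to 7.48 CPM in arrhythmic and 0.572 to 95.5 CPM in ad libitum libraries. Between libraries of a group, Prlr had r = -0.294 with the adipocyte sum and 0.0431 with the neutrophil sum, and the part of these markers in the Prlr difference was not tested.

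Between arrhythmic and night-restricted feeding the log2 difference of Prlr was -0.01 ± 0.12 (SE). In incompletely adapted arrhythmic livers Prlr averaged 42.4 ± 10.3 CPM (SD, n = 18), lower than under arrhythmic feeding by an estimate of -0.38 ± 0.12 on the log2 scale that did not pass (adjusted p = 0.551, edgeR; unadjusted p = 0.00252). In that comparison 0 percent of genes passed and 639 of 12712 had an unadjusted p under 0.05, while DESeq2 also called 0. Counts summed per gene do not separate the long and short forms of the receptor.

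**Figure D1:**
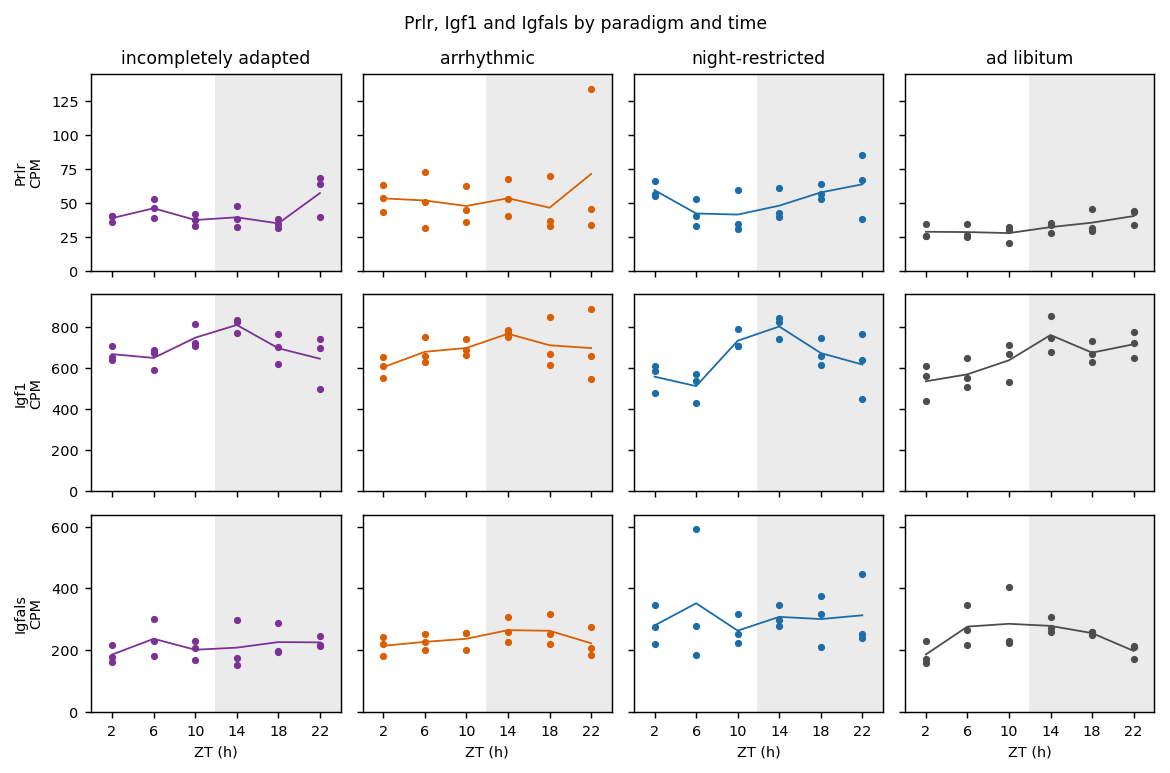
Levels in CPM (linear axes from 0) of Prlr, Igf1 and Igfals over zeitgeber time; each point is a library, lines join the means of 3 libraries, and grey marks the dark phase. Prlr sits lowest in the ad libitum column, where it spans 20.8 to 45.8 CPM, and Igf1 has its highest group mean at ZT14 in all 4 columns.

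The other receptor, Ghr, did not pass any test. It had a lowest, median and highest level of 90.4, 153 and 216 CPM in incompletely adapted arrhythmic, 78.9, 130 and 187 CPM in arrhythmic, 56.4, 133 and 217 CPM in night-restricted and 102, 149 and 203 CPM in ad libitum libraries. The groups overlapped over most of their range. The mean differences ran from -0.20 ± 0.11 (SE, log2, arrhythmic against ad libitum) to 0.14 ± 0.11 (incompletely adapted arrhythmic against arrhythmic). Its 3′ end held 39.9 percent GC, and its deviations from the group means had r = -0.787 with the GC slope over 72 libraries. With that slope in the model Ghr passed for arrhythmic against night-restricted and against ad libitum feeding.

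Igf1 was the member whose daily rhythm passed in more than 1 paradigm, with fitted peaks in the early dark phase. Under arrhythmic feeding it measured 656, 551 and 610 CPM at ZT02 and 751, 785 and 770 CPM at ZT14. Under night-restricted feeding it measured 432, 536 and 571 CPM at ZT06 and 845, 826 and 742 CPM at ZT14. Under both, the 3 early libraries lay below the 3 at ZT14.

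The fitted peak-to-trough range of Igf1 on the log2 scale was 0.35 ± 0.12 in incompletely adapted arrhythmic, 0.48 ± 0.12 in arrhythmic, 0.49 ± 0.12 in night-restricted and 0.41 ± 0.12 in ad libitum livers (SE). The fitted peaks stood at ZT 14.1, 14.1, 14.8 and 16.0 h in that order, with SEs of 1.28, 0.934, 0.924 and 1.09 h. The rhythm passed under arrhythmic feeding (adjusted p = 0.0225, edgeR) and night-restricted feeding (adjusted p = 0.00399), and not under ad libitum (adjusted p = 0.0547) or incompletely adapted arrhythmic feeding (adjusted p = 0.187). No pair of paradigms differed in the test of the rhythm itself, whose adjusted p for Igf1 was 0.688 or more in all 4 comparisons. The arrhythmic call was lost without any of 9 single libraries, with a range then of 0.42 to 0.46, and the ad libitum call was gained without any of 10. Without all 6 libraries of arrhythmic replicate 2 or 3 the arrhythmic call was lost (adjusted p = 0.376 and 0.370, edgeR), and without those of night-restricted replicate 1 the night-restricted call was lost (adjusted p = 0.0937). Mean Igf1 was 704 ± 85.8, 694 ± 94.4, 651 ± 126 and 651 ± 104 CPM in incompletely adapted arrhythmic, arrhythmic, night-restricted and ad libitum livers (SD, n = 18 each), and no mean difference passed.

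The members' rhythm counts are given beside the share of all genes past the same test. In incompletely adapted arrhythmic livers 0 of 10 members passed, where 3.63 percent of genes did. Under arrhythmic feeding Igf1 passed, where 3.37 percent of genes did. Under night-restricted feeding Igf1 and Socs2 passed, where 29.9 percent of genes did. Under ad libitum feeding 0 members passed, where 7.48 percent of genes did. The median fitted log2 range of the members was 0.60, 0.68, 0.67 and 0.64 in incompletely adapted arrhythmic, arrhythmic, night-restricted and ad libitum livers, beside 0.42, 0.43, 0.70 and 0.52 over all genes tested. At an unadjusted p under 0.05 the members counted 3, 4, 3 and 3 of 10 in the same order, beside 13.8, 13.8, 43.2 and 22.4 percent of all genes. DESeq2 called 0, 2, 3 and 1 members, beside 4.45, 4.24, 33.2 and 9.2 percent of genes. Libraries of the same replicate number within a paradigm shared deviations. With a block for that number within each paradigm, added after seeing the data, edgeR called 1, 1, 4 and 2 members. The share of all genes under that block is not given here. Over the 9 alternatives, genes called ran from 300 to 835, 212 to 841, 1741 to 5328 and 509 to 1788 in that order.

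Igfals, the acid-labile subunit gene, was lower under arrhythmic than under night-restricted feeding, but the call rested on replicate 1 of the night-restricted libraries. Its lowest, median and highest levels were 180, 234 and 317 CPM in arrhythmic and 184, 279 and 592 CPM in night-restricted libraries. The night-restricted replicate 1 libraries measured 347 CPM at ZT02, 592 CPM at ZT06, 376 CPM at ZT18 and 447 CPM at ZT22, each the highest of its 3. The groups overlapped.

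The means were 237 ± 38.4 CPM under arrhythmic and 302 ± 97.7 CPM under night-restricted feeding (SD, n = 18 each), a log2 difference of -0.45 ± 0.13 (SE, adjusted p = 0.0313, edgeR). It was the only member past this test, where 6.92 percent of genes passed, 1.76 percent as higher and 5.16 percent as lower. Leaving out 1 library kept the call in 25 of 36 cases, with log2 differences of -0.48 to -0.32. Without the 6 night-restricted replicate 1 libraries the log2 difference was -0.13 (adjusted p = 0.675), and with the GC slope in the model it was -0.19 (adjusted p = 0.154). The 3′ end of Igfals held 57.5 percent GC, and its deviations from the group means had r = 0.837 with the GC slope over 72 libraries. The part of the slope in this difference was not tested beyond these values. The acinar marker Cela1, the 1 tested of 3, was also lower in this comparison, by -0.57 on the log2 scale. The sum of the 3 ran from 47.3 to 153 CPM in arrhythmic and 59.5 to 262 CPM in night-restricted libraries, while the defining markers Cpa1 and Prss2 were at 0 in 68 and 66 of the 72 libraries. Its part in the Igfals difference was not tested.

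**Figure D2:**
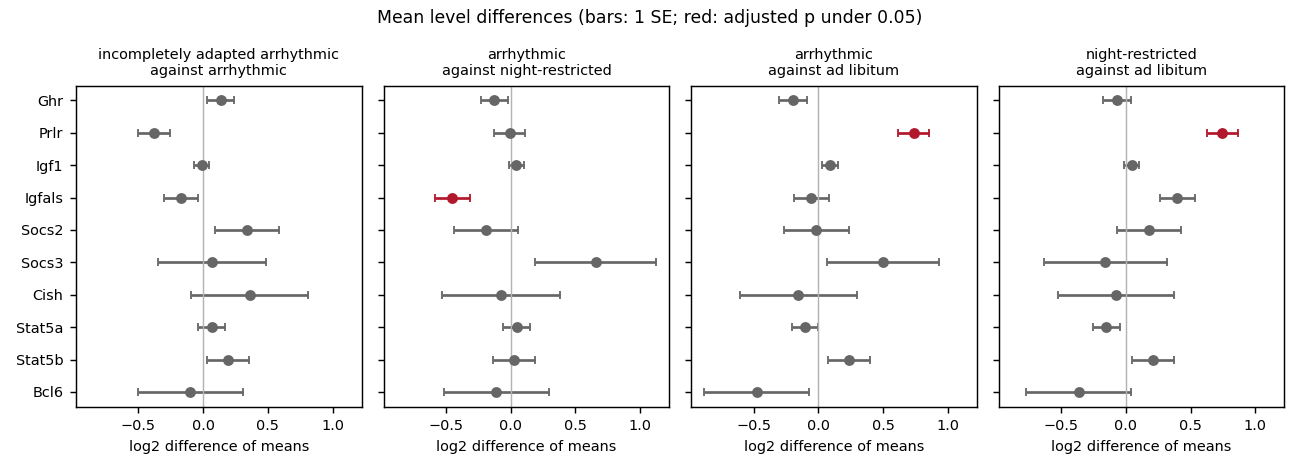
Log2 differences of the mean level over the day for each member in the 4 comparisons, with bars of 1 SE; red points have an adjusted p under 0.05 (edgeR). Prlr is called against ad libitum feeding for arrhythmic and night-restricted feeding at 0.74 each, and Igfals for arrhythmic against night-restricted feeding at -0.45.

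Of the STAT genes, Stat5b had its highest libraries in replicate 1 of the incompletely adapted arrhythmic group, at 197, 143, 164, 150 and 136 CPM at ZT02, ZT10, ZT14, ZT18 and ZT22. The other libraries of that group at those times measured 41.9 to 89.1 CPM. The mean was 87.3 ± 48.3 CPM in incompletely adapted arrhythmic, 75.5 ± 31.2 CPM in arrhythmic, 69.0 ± 17.5 CPM in night-restricted and 62.2 ± 13.8 CPM in ad libitum livers (SD, n = 18 each), and no difference passed. Stat5a averaged 18.1 ± 4.67, 17.1 ± 4.90, 15.5 ± 3.98 and 18.1 ± 5.52 CPM in the same order, again with no difference past the test. Its fitted range was 0.68 ± 0.21 in incompletely adapted arrhythmic, 0.66 ± 0.21 in arrhythmic, 0.29 ± 0.21 in night-restricted and 0.59 ± 0.21 in ad libitum livers (log2, SE). Adjusted p-values were 0.119, 0.151, 0.475 and 0.133 (edgeR). Stat5a values are uncertain: its 3′ end overlaps that of Stat3 on the other strand by 72 exon bases, Stat3 averaged 73.6 CPM, and no source used here names the strand setting of the counting.

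Cish, Bcl6 and Socs2 had a wider spread within groups than Igf1, Prlr or Ghr. The 3 groups given next were picked after their values were seen. In night-restricted livers at ZT22 Cish measured 0.754, 44.8 and 6.26 CPM in replicates 1, 2 and 3, and Bcl6 measured 74.7, 10.1 and 65.1 CPM. In ad libitum livers at ZT06 Cish measured 24.9, 2.26 and 70.3 CPM, and Bcl6 measured 33.0, 113 and 14.2 CPM. In incompletely adapted arrhythmic livers at ZT14 Cish measured 4.68, 9.10 and 82.4 CPM, and Bcl6 measured 81.1, 47.4 and 7.53 CPM. In each of these groups the library highest in Cish was the lowest in Bcl6.

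The highest library of a group exceeded the lowest by a median of 5.91-fold for Cish, 5.58-fold for Bcl6 and 2.67-fold for Socs2 over the 24 groups, against 1.20-fold for Igf1. The ratio was above 4-fold in 13 groups for Cish, 15 for Bcl6 and 3 for Socs2, and in 0 for Ghr, Prlr, Igf1, Igfals, Stat5a and Stat5b. Socs3 was sparse, with 413 counts over 72 libraries, none in 9 of them and a mean of 0.791 CPM, so its ratios are counting-limited. The edgeR dispersion was taken around each paradigm's fitted 24 h course, so it also holds departures of group means from that course. For Cish the dispersion was 0.80, beside a trend of 0.0839 at its level. It ranked 22 from the highest among 6466 genes of at least 10 CPM. Bcl6 had 0.639 (rank 42), Socs2 0.247 (rank 328) and Igf1 0.017 (rank 6272). Igf1 thus lay near the opposite end from Cish.

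**Figure D3:**
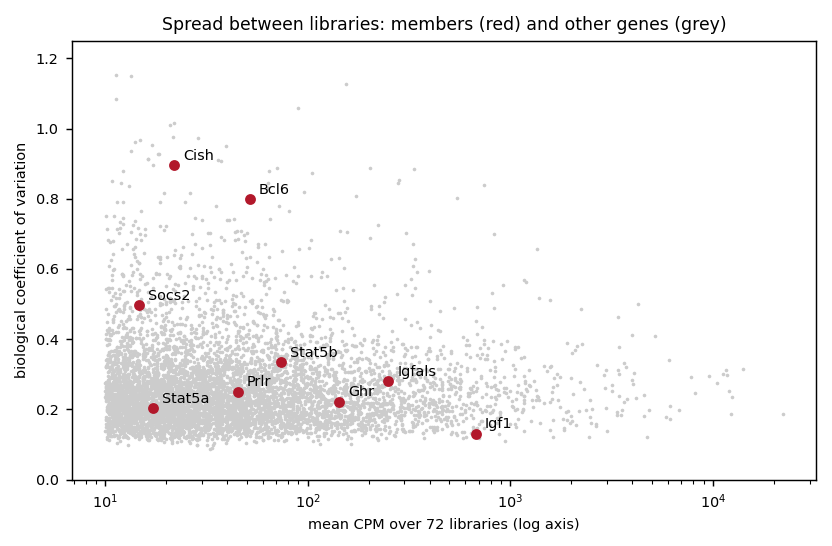
Biological coefficient of variation (the square root of the edgeR dispersion) against mean CPM on a log axis for genes of at least 10 CPM; the 9 members at that level are red. Cish and Bcl6 lie at 0.895 and 0.799, and Igf1 at 0.13.

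None of the 3 genes passed the test of mean level in any of the 4 comparisons. Cish averaged 25.8 ± 24.7, 22 ± 21.7, 19.0 ± 15.3 and 20.7 ± 22.8 CPM in incompletely adapted arrhythmic, arrhythmic, night-restricted and ad libitum livers (SD, n = 18 each). Bcl6 averaged 48.7 ± 45.6, 53.0 ± 43.6, 44.1 ± 42.5 and 61.3 ± 41.6 CPM in the same order. With SEs of about 0.45 for Cish and 0.4 for Bcl6 on the log2 scale, these means resolve only large differences.

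Bcl6 had its widest fitted course under arrhythmic feeding, and it did not pass the test. Under arrhythmic feeding Bcl6 measured 10.7, 20.7 and 19.3 CPM at ZT02, 58.4, 144 and 84.4 CPM at ZT14 and 13.7, 10.2 and 10.2 CPM at ZT22. The ZT14 libraries lay above all those of ZT02 and ZT22. Its fitted range was 3.19 ± 0.82 with a peak at ZT 12.4 h under arrhythmic feeding and 2.41 ± 0.82 at 19.4 h in incompletely adapted arrhythmic livers (log2, SE), and neither passed (adjusted p = 0.0806 and 0.165, edgeR). The difference between these rhythms did not pass either (adjusted p = 0.942, unadjusted p = 0.00486). DESeq2 called the arrhythmic rhythm of Bcl6 (adjusted p = 0.0384). Cish under arrhythmic feeding had a fitted range of 2.58 ± 0.92 with a peak at 23.2 h (adjusted p = 0.343).

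Socs2, which dampens the growth hormone receptor, passed for rhythm under night-restricted feeding. There it measured 25.4, 10.2 and 37.5 CPM at ZT06 and 6.46, 3.99 and 9.01 CPM at ZT18, and the 3 ZT06 libraries lay above those of ZT18. The fitted range was 1.53 ± 0.50 with a peak at 6.70 h (log2, SE, adjusted p = 0.0452, edgeR). Under arrhythmic feeding the fitted range was 1.16 ± 0.50 with a peak at 20.2 h, and the rhythm difference between these paradigms had an adjusted p of 0.0508 (edgeR) and 0.026 (DESeq2). Of the members 0 passed that test, where 3.89 percent of genes did, 0.267 percent with the larger and 3.63 percent with the smaller range under arrhythmic feeding. Members past it also numbered 0 for arrhythmic against ad libitum (0.0236 percent of genes), night-restricted against ad libitum (0 percent) and incompletely adapted arrhythmic against arrhythmic feeding (0 percent). At an unadjusted p under 0.05 they numbered 2, 1, 1 and 2 of 10, beside 25.9, 9.05, 8.72 and 2.44 percent of genes. DESeq2 called 1, 0, 0 and 0, beside 6.93, 0.26, 0.118 and 0 percent of genes. The night-restricted Socs2 call was lost without any of 10 single libraries, with adjusted p-values up to 0.153. It was also lost without all 6 libraries of night-restricted replicate 1, 2 or 3 (adjusted p = 0.157, 0.0859 and 0.251, edgeR). The call held in 6 of 9 alternatives.

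**Figure D4:**
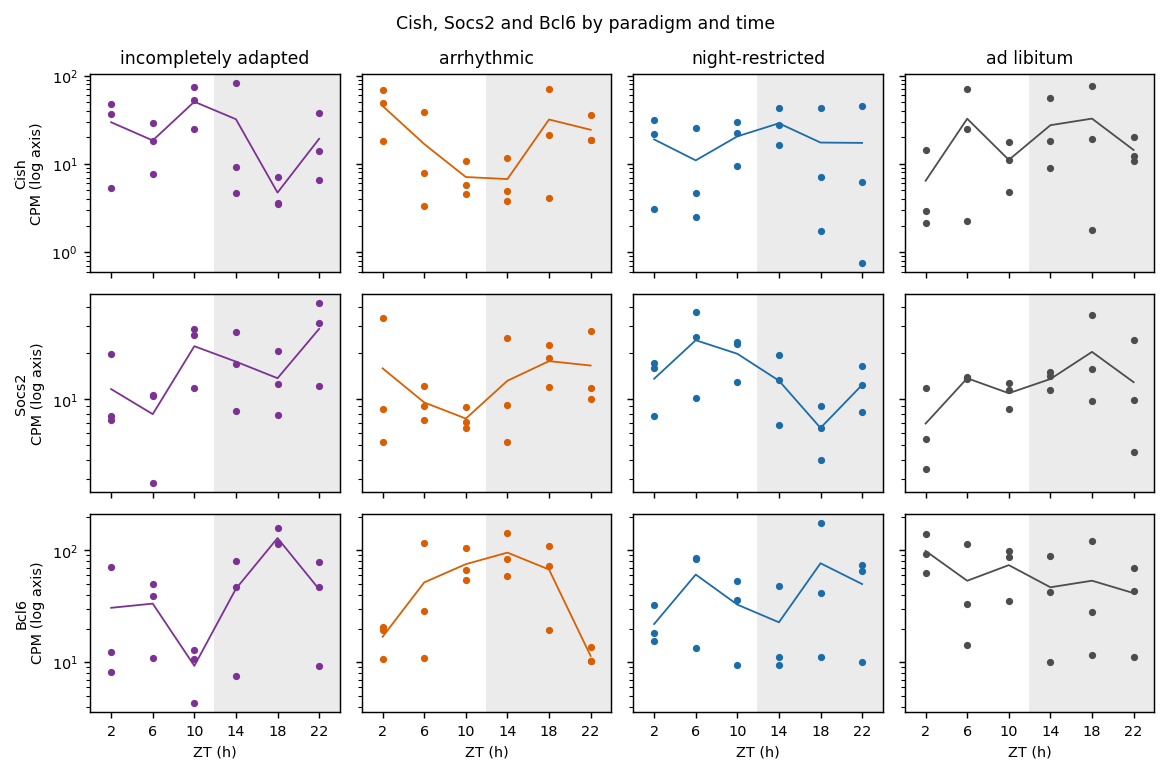
Levels in CPM (log axes) of Cish, Socs2 and Bcl6 over zeitgeber time; each point is a library, lines join the means of 3 libraries, and grey marks the dark phase. Libraries of a group spread widely, from 0.754 to 44.8 CPM for Cish in night-restricted livers at ZT22.

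Between libraries of the same group, Cish and Bcl6 varied in opposite directions. Over 72 libraries, Pearson's r of their log2 CPM after subtracting the group means was -0.838 and Spearman's rho was -0.83. Both had a permutation p of 1e-05, the smallest that 100000 permutations within groups can give, and adjusted p-values of 0.000112 and 0.00015 over the 45 pairs of members. Within paradigms r was -0.929 in incompletely adapted arrhythmic, -0.814 in arrhythmic, -0.821 in night-restricted and -0.81 in ad libitum livers (n = 18 each). Without the 2 libraries farthest from the median of Cish it was -0.821, with the GC slope removed -0.824, and with the means of each paradigm and replicate number removed -0.813.

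Of the 72 libraries, 33 were above the median in Cish and not in Bcl6, 33 in Bcl6 and not in Cish, 3 in both and 3 in neither. In 17 of 24 groups the library highest in Cish was the lowest in Bcl6, and in 1 it was the highest in Bcl6. In 19 of 24 the library lowest in Cish was the highest in Bcl6. Some such matches arise by chance with 3 libraries per group, and these counts were not tested. As a description, among 6465 other genes of at least 10 CPM, Bcl6 had the lowest r with Cish and Cish the lowest r with Bcl6, beside a median absolute r of 0.256 and 0.202.

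Socs2 varied in the same direction as Cish. Its r with Cish was 0.5 (adjusted p = 0.00018, permutation) and 0.519 with the GC slope removed, and Cish was the gene with the highest r to Socs2 among those 6465. In 12 of 24 groups the same library was highest in both. With 3 libraries per group some matches arise by chance, and this count was not tested. Its r with Bcl6 was -0.36 (adjusted p = 0.0322), and with the GC slope removed -0.367 (adjusted p = 0.0592).

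**Figure D5:**
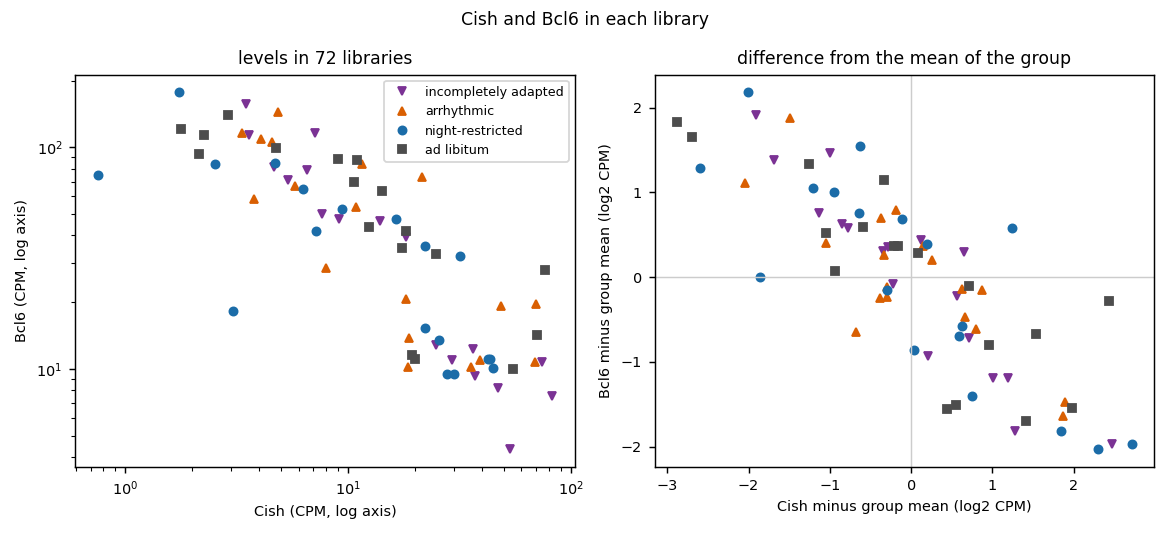
Cish against Bcl6 in 72 libraries, as CPM on log axes (left) and as log2 CPM minus the mean of the library's paradigm and time group (right); shape and colour give the paradigm. Points of all 4 paradigms run from upper left to lower right, with r = -0.838 in the right panel.

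In all, 10 of the 45 pairs passed by Pearson's r. With the GC slope removed 4 of these 10 passed, and so did Igfals with Socs2 (r = 0.487, adjusted p = 0.0114, permutation), which had r = 0.245 before. The pairs of Ghr with Igfals (r = -0.683), Ghr with Socs3 (0.583) and Igfals with Socs3 (-0.653) were at -0.0719, -0.0498 and -0.034 once that slope was removed. The markers of stellate cells and fibroblasts moved with the same slope: their summed level had r = -0.894 with it, 0.698 with Ghr and -0.797 with Igfals, as a description over 72 libraries. That sum ran from 76.1 to 220 CPM in incompletely adapted arrhythmic, 95.3 to 184 CPM in arrhythmic, 39.2 to 166 CPM in night-restricted and 50 to 181 CPM in ad libitum libraries, with 5 of 5 markers detected in every library. Its r with Cish was 0.413 and with Bcl6 -0.275. Igfals also had r = 0.586 and 0.566 with the summed markers of Kupffer and endothelial cells. With the sum of the acinar list, which was nearly all Cela1, it had r = 0.509. Stat5b had -0.677 with the endothelial and 0.488 with the hepatocyte sum. The part of these markers in the results was not tested. Igfals with Stat5a (r = -0.528, and -0.412 with the slope removed) and Prlr with Igf1 (0.462, and 0.486) passed by Pearson's r both ways. By Spearman's rho Prlr with Igf1 did not pass (rho = 0.369, adjusted p = 0.0587, permutation).

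Other genes of the pathway were described from lists chosen with earlier results of these data known. Among 22 tested partners of the growth hormone receptor, 0, 1, 5 and 2 were rhythmic in incompletely adapted arrhythmic, arrhythmic, night-restricted and ad libitum livers. The shares of all genes were 3.63, 3.37, 29.9 and 7.48 percent in that order. The kinase gene Tyk2 had a range of 0.93 ± 0.19 under night-restricted and 0.80 ± 0.19 under ad libitum feeding (log2, SE). Jak2 itself averaged 16.2 ± 4.01 CPM under arrhythmic and 12.7 ± 4.38 CPM under night-restricted feeding (SD, n = 18 each), a log2 difference of 0.29 ± 0.10 that did not pass (adjusted p = 0.0731, edgeR). In that comparison 3 of the 22 passed, where 6.92 percent of all genes did, 1.76 percent as higher and 5.16 percent as lower. The phosphatase gene Ptpn6 was higher under arrhythmic feeding (0.38 ± 0.11), and the adaptor Sh2b1 (-0.42 ± 0.11) and the STAT inhibitor Pias3 (-0.54 ± 0.16) were lower (log2, SE). Without the 5 libraries of extreme GC slope these 3 differences were 0.30, -0.18 and -0.09 in that order, and none passed (adjusted p = 0.211, 0.498 and 0.853, edgeR).

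A list of IGF receptors, receptor substrates, binding proteins and related genes had 13 tested members, none of them a ligand gene. Of these, 0, 0, 6 and 2 were rhythmic in incompletely adapted arrhythmic, arrhythmic, night-restricted and ad libitum livers, beside the same shares of all genes. Igfbp4, a binding protein gene, had the smallest p, with ranges of 1.11 ± 0.18 under night-restricted (adjusted p = 2.21e-05, edgeR) and 0.88 ± 0.18 under ad libitum feeding (adjusted p = 0.00288). Igf2bp2, which encodes an RNA-binding protein, had a range of 1.92 ± 0.50 under night-restricted feeding and passed in 5 of 9 alternatives. The insulin receptor gene Insr and its substrates Irs1 and Irs2 were rhythmic under night-restricted feeding, with ranges of 0.70 ± 0.21, 1.45 ± 0.31 and 1.27 ± 0.37 (log2, SE) and peaks at 7.97, 19.3 and 4.17 h. None of these 3 passed in the other paradigms, and none passed the test of the rhythm difference in any of the 4 comparisons. The Insr rhythm passed in 5 of 9 alternatives and that of Irs2 in 7 of 9. Igfbp1, an IGF-binding protein raised in fasting liver, averaged 133 ± 79.2 CPM under arrhythmic and 71.9 ± 56.5 CPM under ad libitum feeding (SD, n = 18 each), a log2 difference of 1.07 ± 0.29 (SE, adjusted p = 0.0351, edgeR). It was the only gene of the 13 past a mean level test, and in that comparison 2.1 percent of all genes passed. Without a filter on low counts Igfbp1 did not pass (adjusted p = 0.0781, edgeR). Igfbp2 averaged 248 ± 78.9 CPM under arrhythmic and 323 ± 146 CPM under night-restricted feeding (SD, n = 18 each) and did not pass (adjusted p = 0.0655).

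Of 19 tested regulators of growth hormone dependent liver transcription, 2, 3, 8 and 4 were rhythmic in the same order of paradigms, again beside 3.63, 3.37, 29.9 and 7.48 percent of all genes. Trim24, a transcriptional cofactor, was rhythmic in all 4, with ranges of 1.24 ± 0.26, 0.97 ± 0.26, 1.34 ± 0.26 and 1.39 ± 0.26 (log2, SE). Its fitted peaks stood at 12.0, 12.2, 11.1 and 13.0 h in that order. Tox was rhythmic in all 4 as well, with ranges from 1.18 ± 0.31 under arrhythmic to 1.79 ± 0.31 under night-restricted feeding. Under arrhythmic feeding the Tox call held in 4 of 9 alternatives, with an adjusted p of up to 0.409, and the Trim24 call in 6 of 9, with one of up to 0.0991. The leptin receptor gene Lepr was low, at 0.864 ± 0.49 CPM under arrhythmic, 0.393 ± 0.314 CPM under night-restricted and 0.353 ± 0.289 CPM under ad libitum feeding (SD, n = 18 each), and passed as higher under arrhythmic feeding in both comparisons. Against night-restricted feeding that call was lost without the 5 libraries of extreme GC slope (adjusted p = 0.0839, edgeR).

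Patterns over the 24 group means were compared by Pearson's r as a description, with genes of at least 10 CPM. The genes most like Igf1 were Fam47e (0.907), Adh5 (0.901) and Cdip1 (0.891). Those most like Prlr were Rdh16f2 (0.806), Cyp39a1 (0.8) and Hamp2 (0.768). Those most like Bcl6 were Rangap1 (0.778), Wbp1 (0.764) and Mcm3ap (0.752), and those most like Cish were Rpl18-ps2 (0.802), Rpl28 (0.751) and Sun1 (0.74). Socs2 had no gene above 0.617, the value of Lurap1l.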

How the data were processed

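Liver RNA was extracted with TRIzol and sequenced from its 3′ ends (Lexogen QuantSeq), per the labels' protocols. Reads were aligned with STAR 2.4.2a, and mm10 and GRCm38.p5 are the builds named, per the submitters' processing notes; no source used here gives the counting tool, its strand setting or the annotation release. The authors deposited raw counts for 51912 genes, used here, and a second table. Its deposited values equal CPM computed from those counts to within 5.09e-11 for 11508 genes, and levels were recomputed as CPM here. Identifiers were matched, without version, to GENCODE M21 symbols (51633 matched). 0 columns were left out, and 0 pairs of libraries held identical values.

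Counts were fitted with edgeR 4.0.16 (R 4.3.3): filterByExpr over 24 groups (12712 genes), TMM, robust quasi-likelihood, and a mean, cosine and sine per paradigm at 24 h over all 72 libraries. Rhythm (cosine and sine together), its difference between paradigms and the mean difference were F tests, adjusted by Benjamini-Hochberg over all genes, with a threshold of 0.05. Libraries counted as independent, though those of the same replicate number within a paradigm shared deviations, so p-values of mean differences may be too small. The code was tested on simulated data. Fitted ranges are 0 or more, so noise raises them. Residual correlations used log2 CPM with a prior count of 1, minus group means, and 100000 two-sided permutations within groups. DESeq2 1.42.0 was an alternative. Named genes were the members, some list genes past a test (8 a list at most, by smallest p), Insr, Irs1, Irs2, Igfbp1, Igfbp2 and Jak2, and the 3 genes most like a member over the group means. The members and lists were chosen with earlier results of these data known.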

Additional observations from a re-analysis of the deposited data

Results flagged for a closer look

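A pair of pathway genes had daily courses that differed between arrhythmic and night-restricted feeding by a direct test of the difference. Of all genes tested, 3.89 percent passed that test. By list, 0 of 10 members, 0 of 22 receptor partners, 1 of 13 IGF genes (Igfbp1) and 1 of 19 regulators (Ezh1) passed. The lists were chosen with earlier results of these data known, and these counts do not set the pathway apart from all genes. Igfbp1 had a fitted log2 range of 1.05 with a peak at 17.5 h under arrhythmic and 2.50 with a peak at 3.79 h under night-restricted feeding (adjusted p = 0.0313, edgeR, n = 18 libraries each), and adjusted p was 0.0697 without the 5 libraries of extreme GC slope. Ezh1, a histone methyltransferase gene, had 0.36 with a peak at 16.1 h under arrhythmic and 1.05 with a peak at 4.04 h under night-restricted feeding (adjusted p = 0.0277, edgeR), and adjusted p was 0.288 with time as a factor. Groups of 3 libraries were not screened for outlying samples.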

How the results depend on the processing

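Both Prlr calls held under every alternative tried. Elsewhere the number of members called moved. Under the DESeq2 test it was 2 for rhythm in arrhythmic, 1 for rhythm in ad libitum and 1 for the rhythm difference of arrhythmic against night-restricted, with 3 rather than 2 for rhythm in night-restricted, and with DESeq2 size factors 1 in ad libitum. Without a filter on low counts (25393 genes tested) it was 0 for rhythm in arrhythmic, 0 in night-restricted and 0 for the mean difference of arrhythmic against night-restricted. With the GC slope as covariate it was 1 for rhythm in incompletely adapted arrhythmic, 2 in ad libitum and 2 for the mean difference of arrhythmic against ad libitum; there, for arrhythmic against night-restricted, the 1 member called was Ghr, not Igfals. Without the 5 libraries of extreme slope it was 2 for rhythm in arrhythmic, 1 in night-restricted, 1 in ad libitum and 0 for the mean difference of arrhythmic against night-restricted. With time as a factor it was 0 for rhythm in arrhythmic and 1 in night-restricted. With arrhythmic fitted alone, the 1 member rhythmic was Bcl6, not Igf1. The causes were not tested. Genes called in the whole table moved between settings too, with the ranges given below. Apart from DESeq2, the share of all genes under each setting is not given. The member counts in this section thus do not show a change particular to the members. Removing the GC slope gave 5 correlated pairs, 4 of them among the 10 reported, and turned Ghr with Socs3 to -0.0498.

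Leaving out 1 library, or the 6 of a replicate number of a paradigm (added after seeing the data), gave 0 to 0, 0 to 1, 0 to 2 and 0 to 2 members rhythmic in incompletely adapted arrhythmic, arrhythmic, night-restricted and ad libitum livers. For rhythm differences it gave 0 to 1 for arrhythmic against night-restricted and 0 to 0 for the other 3 comparisons. For mean differences it gave 0 to 1 for arrhythmic against night-restricted, 1 to 1 for arrhythmic against ad libitum, 1 to 2 for night-restricted against ad libitum and 0 to 0 for incompletely adapted arrhythmic against arrhythmic. Each such fit ran the tests of that library's paradigm.

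Replicate numbers did not pair libraries across paradigms: at the same time, 43 of 108 same-number pairs and 89 of 216 different-number pairs had r over 0.1. With replicate block the members called numbered 0, 1, 2 and 0 for rhythm, 0 for each rhythm difference, and 1, 1, 1 and 0 for mean differences, as without it. With a block within each paradigm, added after seeing the data, they numbered 1 (Stat5a) for rhythm in incompletely adapted arrhythmic, 4 in night-restricted and 2 in ad libitum, 1 (Socs2) for the rhythm difference of arrhythmic against night-restricted and 2 for the mean difference of night-restricted against ad libitum.

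Over the settings other than leaving out replicates, genes of the whole table called rhythmic ran from 300 to 835 in incompletely adapted arrhythmic (462 as reported), 212 to 841 in arrhythmic (429), 1741 to 5328 in night-restricted (3801) and 509 to 1788 in ad libitum (951). Rhythm differences ran from 52 to 2273 for arrhythmic against night-restricted (495), 0 to 37 for arrhythmic against ad libitum (3) and 0 to 39 for night-restricted against ad libitum (0). Mean differences ran from 94 to 1808 for arrhythmic against night-restricted (880), 143 to 809 for arrhythmic against ad libitum (267), 122 to 704 for night-restricted against ad libitum (206) and 0 to 8 for incompletely adapted arrhythmic against arrhythmic (0). Depth limits Socs3, at 413 counts in all.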

Other observations

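Genes that varied with Cish and Bcl6 between libraries of the same group were looked up after their values were seen and are given as a description over 72 libraries, with no test. Those with the highest r to Cish were Phlda1 (0.767), the transcription factor genes Foxa2 (0.739) and Foxq1 (0.739), and Arid5b (0.68). Prox1, a homeobox factor of hepatocytes, had -0.599 with Cish and the highest r with Bcl6, 0.647. Foxa2 had -0.737 and Arid5b -0.663 with Bcl6.

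For Socs2, the lowest values belonged to Slc10a1, a bile acid uptake transporter (-0.492), and Cyp2b9 (-0.481). Deviations from the group means were shared between libraries of the same replicate number within a paradigm, with a median r over pairs of times of 0.421 in incompletely adapted arrhythmic, 0.196 in arrhythmic, 0.534 in night-restricted and 0.287 in ad libitum livers, against -0.155, -0.0832, -0.217 and -0.208 for pairs of different numbers.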
